A study of Mus musculus with 18 samples.

Results

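The 50 genes described here encode translation initiation factors, the proteins that load the initiator tRNA and the messenger RNA onto the small ribosomal subunit, find the start codon and join the large subunit. They were measured in RNA of spinal cord microglia, the tissue-resident phagocytes of the spinal cord. Members were the protein-coding rows of the count table whose mouse symbol starts with Eif1 to Eif6 and whose counts sum to at least 180 over 18 libraries. Of 61 rows with such a symbol, 50 were kept, out of 39017 genes in the table. Left out were 6 rows that are not protein coding, 2 genes set aside by name (Eif4ebp1 and Eif2ak2), the Y-linked Eif2s3y, and 2 genes under the minimum. Of those last 2, Eif5a was listed at 0 in all 18 libraries and Eif4e1b had a summed count of 1.

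The libraries formed 3 groups of 6, all from female mice of genotype WT that carry Tmem119-Cre and RiboTag. Met_EAE came from mice given metformin, an antidiabetic drug, and carrying the disease labelled EAE (experimental autoimmune encephalomyelitis, in which T cells attack myelin). Ctrl_EAE came from mice with the same disease and control treatment, and Ctrl_Healthy from healthy mice with control treatment. All 3 groups share the Cre driver, which uses the promoter of the microglial gene Tmem119, and RiboTag, which puts an epitope on a ribosomal protein where Cre is active. The labels name total RNA and describe no pull-down of tagged ribosomes. They give no age, no dose, no day of disease and no statement that libraries came from separate animals, so p-values measure the spread between these libraries, which may be technical.

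In eukaryotes, initiation begins when the heterotrimer eIF2 carries the initiator tRNA to the 40S subunit together with eIF1, eIF1A and the large scaffold eIF3. The cap-binding complex eIF4F, made of eIF4E, eIF4G and the helicase eIF4A, brings in the messenger RNA, eIF5 and eIF5B then complete start codon selection and subunit joining, and eIF2B reloads eIF2 with GTP. Kinases that phosphorylate eIF2 limit this reloading under stress, and the 4E-binding proteins, controlled by the kinase mTOR, limit eIF4F. The values are messenger RNA levels. They hold no measure of protein, of phosphorylation or of the rate of translation.

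Totals of gene counts per library ran between 46.2 and 56.0 M in Met_EAE, 46.3 and 58.3 M in Ctrl_EAE and 48.0 and 53.4 M in Ctrl_Healthy (M, 1e6 reads), and 16740 genes, including all 50 members, passed the filter on low counts. Some features of the libraries touch the values below. Ctrl_EAE library 10 held the highest or lowest value of its group for 65.1% of all genes and 72.0% of members, Ctrl_EAE library 1 for 47.1% and 72.0%, and Met_EAE library 22 for 68.4% and 48.0%. The summed level of 10 microglial markers ran between 8371 and 17968 CPM (a gene's counts per 1e6 counts of the library, TMM-scaled) in Met_EAE, 4764 and 7837 CPM in Ctrl_EAE and 18182 and 20518 CPM in Ctrl_Healthy, with the other 8 markers detected and the defining genes Trem2 and Aif1 listed at 0 throughout. Of 8 tested, 7 fell in Ctrl_EAE against Ctrl_Healthy, 6 rose in Met_EAE against Ctrl_EAE and 7 fell in Met_EAE against Ctrl_Healthy. The highest Met_EAE sum was that of library 22. The summed level of 7 monocyte-derived cell markers ran between 12.2 and 544 CPM in Met_EAE, 247 and 517 CPM in Ctrl_EAE and 4.25 and 11.2 CPM in Ctrl_Healthy, and library 22 was again the Met_EAE library nearest to healthy. Levels of 5 fibroblast and mural markers (31.2 to 414 CPM in Met_EAE, 291 to 649 CPM in Ctrl_EAE and 13.7 to 68.0 CPM in Ctrl_Healthy) and of 8 neuronal markers (208 to 495 CPM in Met_EAE, 162 to 245 CPM in Ctrl_EAE and 362 to 499 CPM in Ctrl_Healthy) moved with the groups too, 4 of 5 rising and 8 of 8 falling in Ctrl_EAE against Ctrl_Healthy. The summed level of 5 border macrophage markers was 2.57 to 44.8 CPM in Met_EAE, 51.5 to 106 CPM in Ctrl_EAE and 0.792 to 2.43 CPM in Ctrl_Healthy, with no overlap between groups, and all 3 tested rose in Ctrl_EAE against Ctrl_Healthy. T cell markers summed to 0.109 to 1.67 CPM in Met_EAE, 0.542 to 3.71 CPM in Ctrl_EAE and 0 to 0.111 CPM in Ctrl_Healthy (Cd2 and Trac at 0 throughout), and neutrophil markers to 0 to 4.77, 2.76 to 8.39 and 0 to 0.103 CPM in those groups. Of each of these lists both tested genes rose in both EAE groups against Ctrl_Healthy. Oligodendrocyte markers summed to 2617 to 3176 CPM in Met_EAE, 2693 to 3418 CPM in Ctrl_EAE and 3371 to 3833 CPM in Ctrl_Healthy, with 4 of 6 tested falling in Ctrl_EAE, and astrocyte markers to 443 to 645 CPM in Met_EAE, 454 to 527 CPM in Ctrl_EAE and 525 to 580 CPM in Ctrl_Healthy, with 2 of 6 rising and 3 falling. In Met_EAE against Ctrl_EAE, 1 of 5 monocyte-derived, 1 of 3 border macrophage and 1 of 5 fibroblast and mural markers tested fell. In that comparison 2 of 8 neuronal markers rose, and of 6 astrocyte markers 2 rose and 1 fell. No oligodendrocyte, T cell or neutrophil marker tested was called there. In bulk RNA, fewer cells of a type and less RNA per cell cannot be told apart, and the part of these other cells in the results on initiation factors was not tested.

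Differences were called at a Benjamini-Hochberg adjusted p under 0.05 over all genes tested (edgeR's quasi-likelihood test, 6 libraries a group), and "rose" and "fell" are used only of called differences. Calls are those of the fit over all 18 libraries unless another setting is named. Values are log2 changes ± SE on the TMM scale, on which the median of all genes was -0.00 in Ctrl_EAE against Ctrl_Healthy. Scaling by library totals alone moved that median by -0.42, and the signs of 11 of the rises below then turned. Ctrl_EAE is the denominator in one comparison and the numerator in another, so the comparisons are not independent of each other.

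In Ctrl_EAE against Ctrl_Healthy, 22 of 50 initiation factor genes rose and 6 fell, where 62.4% of all genes were called in either direction. Rises were 44.0% of members, where 31.7% of all genes tested rose, and falls were 12%, where 30.7% of all genes fell. The median log2 change of members was 0.15. With library totals alone, 4 members rose and 25 fell, with the median of members at -0.28 and that of all genes at -0.42. Of all 16740 genes, 2604 rose and 8649 fell in that setting. In Met_EAE against Ctrl_EAE, 3 members rose (6.0%, against 12.5% of all genes) and 11 fell (22%, against 12.1% of all genes), with a median of -0.17. With library totals alone those counts were 8 and 1, the fall being that of Eif3k, and 4712 and 616 over all 16740 genes. In Met_EAE against Ctrl_Healthy, 8 members rose (16.0%, against 20.3%) and 2 fell (4.0%, against 16.3%), with a median of 0.08. With library totals alone 2 members rose and 14 fell, and of all 16740 genes 1927 rose and 4786 fell. The counts of falls with metformin changed with the libraries used, as did those of all genes (2024 of 16740 in the main fit). Without Ctrl_EAE library 10 and Met_EAE library 22, 7 members and 1811 of 16788 genes fell. These counts were 5 and 1643 of 16896 without Ctrl_EAE library 1, and 6 and 1661 of 16875 without Met_EAE library 22. Counts by complex below rest on few genes each and stand beside the shares of all genes given here.

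On GRCm38, GENCODE places the genes with the longest accounts here as follows, with Eif1a at chr18:46597701-46616456, Eif4a1 at chr11:69666936-69672423, Eif5b at chr1:37998010-38055579, Eif3k at chr7:28971372-28981864, Eif2ak3 at chr6:70844515-70905245, Eif2ak4 at chr2:118388618-118475234 and Eif4enif1 at chr11:3202392-3244588.

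**Figure D1:**
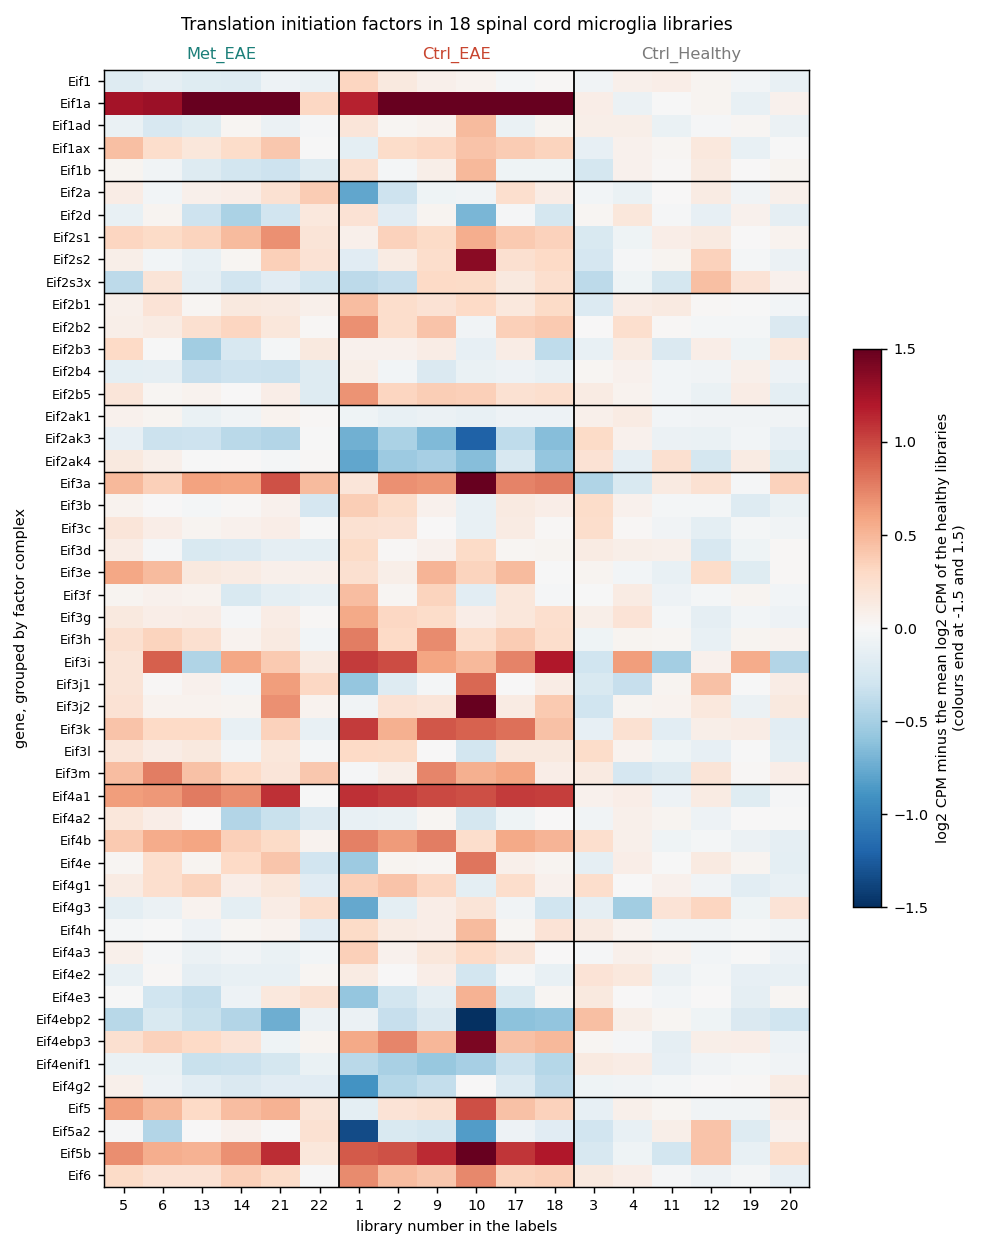
Each row is 1 of the 50 initiation factor genes, grouped by complex, and each column 1 of 18 libraries, with colour giving log2 CPM (TMM-scaled) minus the mean log2 CPM of the 6 Ctrl_Healthy libraries. Eif1a, Eif4a1 and Eif5b are red across Ctrl_EAE, Eif2ak3, Eif2ak4 and Eif4enif1 are blue there, Met_EAE library 22 is pale for Eif1a and Eif4a1, and Ctrl_EAE library 10 holds extreme values for Eif5b, Eif3a and Eif4ebp2. With library totals alone, 11 of the 22 rises in Ctrl_EAE take the other sign.

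Start-site sequences were set beside the changes because many translation genes carry either or both of a pair of features at their starts. One is the E-box CACGTG, the letters bound by Myc and related factors. The other is a transcript start of C followed by a run of pyrimidines, a feature of messengers whose translation, rather than level, mTOR controls. RefSeq windows on GRCm38.p6 of 300 bases, 250 before and 50 after the start, matched 40 of the 50 members. The E-box, a palindrome that reads alike on both strands, occurred in the windows of 9 of these 40 members (22.5%), and in those of 8.09% of 27025 genes in the table. Of the 9, 4 rose in Ctrl_EAE against Ctrl_Healthy (Eif3a, Eif3k, Eif4a1 and Eif4h, the last reversed with library totals alone), 1 fell (Eif5a2) and 4 were not called (Eif1b, Eif3f, Eif4e and Eif4g1). Among the 40, 15 rose, 5 fell and 20 were not called. A run of C and 4 pyrimidines at the start was present in 2 of the 40, Eif2s3x and Eif3f (5.0%), and in 3.01% of genes. Neither was called in any comparison on the TMM scale, and Eif3f fell in Ctrl_EAE against Ctrl_Healthy with library totals alone. The run was sought only at the annotated start base, so runs at other start positions were missed. A match is a description of letters only. The first 3 sequences are from members that rose and the fourth from 1 that was not called, each upstream of the start with the E-box in capitals, at chr11:69672560-69672659 (minus strand), chr7:28981889-28981979 (minus), chr5:134639453-134639552 (minus) and chr16:20672626-20672725 (plus). The last 2 show the start of transcription with the pyrimidine run in capitals, at chr7:108934405-108934434 (plus) and chrX:94212632-94212661 (minus).
Eif4a1: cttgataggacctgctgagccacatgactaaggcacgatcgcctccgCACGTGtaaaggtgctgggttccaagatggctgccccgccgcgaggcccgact
Eif3k: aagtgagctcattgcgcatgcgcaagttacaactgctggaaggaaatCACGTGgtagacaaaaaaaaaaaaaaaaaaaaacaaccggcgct
Eif4h: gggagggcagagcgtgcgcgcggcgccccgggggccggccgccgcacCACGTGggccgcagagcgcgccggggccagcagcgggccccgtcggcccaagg
Eif4g1: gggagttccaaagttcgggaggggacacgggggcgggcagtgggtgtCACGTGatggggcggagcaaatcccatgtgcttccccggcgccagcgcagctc
Eif3f: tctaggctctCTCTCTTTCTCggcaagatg
Eif2s3x: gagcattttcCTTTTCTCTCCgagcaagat
In Eif4a1 the E-box began 189 bases before the start, and in Eif3k, Eif4h and Eif4g1 44, 96 and 54 bases before it.

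The scanning factors eIF1 and eIF1A keep the 40S subunit open for scanning and check the start codon. Of 5 genes in this group, 2 rose in Ctrl_EAE against Ctrl_Healthy (Eif1a and Eif1ax, the second reversed with library totals alone) and 2 fell in Met_EAE against Ctrl_EAE (Eif1 and Eif1b). Eif1ad, whose product is known from human cells for maturation of the 40S subunit, was not called in any comparison on the TMM scale. With library totals alone, Eif1, Eif1b and Eif1ad fell in Ctrl_EAE against Ctrl_Healthy (-0.33, -0.30 and -0.29). Eif1a had the largest rise of all members. Its lowest, median and highest levels were 35.3, 79.5 and 123 CPM in Met_EAE, 63.4, 94.4 and 117 CPM in Ctrl_EAE and 26.2, 28.8 and 30.4 CPM in Ctrl_Healthy. Every library of both EAE groups was above every healthy library, and the lowest Met_EAE value, that of library 22, was the nearest to healthy. The log2 change was 1.72 ± 0.20 in Ctrl_EAE against Ctrl_Healthy (adjusted p = 1.08e-06) and 1.48 ± 0.20 in Met_EAE against Ctrl_Healthy (2.63e-05), while Met_EAE against Ctrl_EAE gave -0.24 ± 0.20 (0.387). Leaving out any 1 library kept the rise in Ctrl_EAE between 1.65 and 1.81.

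Eif1ax, the X-linked gene for a near copy of the eIF1A protein, had a rise of 0.27 ± 0.10 in Ctrl_EAE against Ctrl_Healthy (adjusted p = 0.0191, edgeR). Per length of annotated exons, Eif1a made up a median of 73.4% of the summed level of both genes in Met_EAE (59.8 to 79.7%), 76.0% in Ctrl_EAE (74.7 to 78.6%) and 54.2% in Ctrl_Healthy (51.8 to 58.1%). The shares in both EAE groups did not overlap those of the healthy group. In contrast, Eif1 and its paralogue Eif1b kept nearly even shares, Eif1 at medians of 45.8%, 45.9% and 44.7% in Met_EAE, Ctrl_EAE and Ctrl_Healthy. Eif1 ran at 103, 106 and 112 CPM (lowest, median, highest) in Met_EAE, 115, 124 and 148 CPM in Ctrl_EAE and 109, 118 and 126 CPM in Ctrl_Healthy. All Met_EAE libraries lay below all Ctrl_EAE libraries, with a log2 change of -0.25 ± 0.07 (adjusted p = 0.0156). With library totals alone that change was -0.017, not called. Eif1b measured 62.7, 67.8 and 79.7 CPM in Met_EAE, 74.0, 79.1 and 108 CPM in Ctrl_EAE and 64.7, 79.2 and 85.4 CPM in Ctrl_Healthy, with overlap. Its fall in Met_EAE against Ctrl_EAE, -0.28 ± 0.10 (0.0421), was lost on leaving out any of 11 libraries (adjusted p up to 0.089).

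eIF2 delivers the initiator tRNA, and Eif2a and Eif2d encode proteins that can deliver it without eIF2. One of these 5 genes rose in Ctrl_EAE against Ctrl_Healthy, Eif2s1, which encodes the alpha subunit that stress kinases phosphorylate, and its sign turned with library totals alone. In Met_EAE against Ctrl_EAE, 0 of the 5 were called by edgeR, 0 at an unadjusted p under 0.05 and 0 by DESeq2. With library totals alone, Eif2a was called higher there (0.47, adjusted p = 0.0334, edgeR). Eif2a and Eif2d then fell in Ctrl_EAE against Ctrl_Healthy (-0.52 and -0.56). Eif2s1 had 26.1, 28.6 and 36.5 CPM in Met_EAE, 24.0, 29.0 and 33.3 CPM in Ctrl_EAE and 19.4, 23.3 and 24.9 CPM in Ctrl_Healthy. All Met_EAE libraries exceeded all healthy ones, and Ctrl_EAE overlapped with healthy through library 1. The rises were 0.39 ± 0.09 in Met_EAE (adjusted p = 0.0036) and 0.34 ± 0.09 in Ctrl_EAE (0.00448), each against Ctrl_Healthy. Eif2s2, the beta subunit, had 22.9, 25.8 and 31.7 CPM in Met_EAE, 22.1, 29.4 and 63.2 CPM in Ctrl_EAE and 20.7, 24.4 and 31.5 CPM in Ctrl_Healthy, the top value being library 10. Its change in Ctrl_EAE was not called (0.43 ± 0.19, 0.0519) and came to 0.15 without library 10. With the range of library numbers as covariate it was called (0.40, adjusted p = 0.0477, edgeR). Eif2a had 13.4, 14.9 and 17.9 CPM in Met_EAE, 8.06, 13.3 and 16.5 CPM in Ctrl_EAE and 12.9, 13.7 and 14.96 CPM in Ctrl_Healthy, and the groups overlapped.

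The other eIF2 subunit genes share near-identical sequence with other rows, and how the counting treated such reads is not known, so their levels are uncertain. Eif2s3x, the X-linked gene for the gamma subunit that binds GTP and tRNA, had 1297 counts over 18 libraries, against 58222 for Gm2223, a processed pseudogene on the X chromosome that matches 37.0% of its longest transcript at 95% identity or more. Eif2s3x alone had a log2 change of 0.05 ± 0.19, not called, in Ctrl_EAE against Ctrl_Healthy. Gm2223 had 63.7, 67.7 and 78.5 CPM in Met_EAE, 11.8, 44.9 and 51.9 CPM in Ctrl_EAE and 67.3, 73.7 and 89.1 CPM in Ctrl_Healthy, with every Ctrl_EAE library below every library of the other groups. The counts of both rows summed fell by 0.91 ± 0.21 on the log2 scale in Ctrl_EAE against Ctrl_Healthy (adjusted p = 0.00108, edgeR) and rose by 0.77 ± 0.21 in Met_EAE against Ctrl_EAE (0.0132). For Eif2s2, the pseudogene Gm9892 had 77879 counts beside 26422 for the gene, and the sum of both rose by 0.98 ± 0.25 in Ctrl_EAE against Ctrl_Healthy (0.00241). Which of the 2 rows each read came from cannot be told apart here.

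eIF2B is the exchange factor that returns eIF2 to its GTP-bound form. In Ctrl_EAE against Ctrl_Healthy 3 of its 5 genes rose (Eif2b1, Eif2b2 and Eif2b5) and Eif2b3 and Eif2b4 were not called, but with library totals alone all 3 risers changed sign (-0.15, -0.074 and -0.057). In Met_EAE against Ctrl_EAE, 1 of the 5 fell, Eif2b5, which encodes the catalytic epsilon subunit. Eif2b5 had 27.3, 32.1 and 35.4 CPM in Met_EAE, 36.4, 39.4 and 49.7 CPM in Ctrl_EAE and 28.2, 31.4 and 33.9 CPM in Ctrl_Healthy. Ctrl_EAE stood above both other groups without overlap, by 0.37 ± 0.09 against Ctrl_Healthy (adjusted p = 0.001), and Met_EAE stood below Ctrl_EAE, at -0.34 ± 0.09 (0.00867). Eif2b1, the alpha subunit, had 14.8, 15.6 and 16.7 CPM in Met_EAE, 16.1, 17.5 and 19.96 CPM in Ctrl_EAE and 12.5, 14.5 and 15.9 CPM in Ctrl_Healthy, a rise of 0.28 ± 0.08 in Ctrl_EAE (0.00525). Eif2b2, the beta subunit, had 18.9, 20.6 and 23.3 CPM in Met_EAE, 17.9, 24.1 and 29.96 CPM in Ctrl_EAE and 15.9, 18.5 and 22.1 CPM in Ctrl_Healthy, with overlap and a rise of 0.36 ± 0.11 (0.00618). The delta subunit gene Eif2b4 fell in Met_EAE against Ctrl_Healthy (-0.24 ± 0.07, adjusted p = 0.0164, edgeR), a call lost with no filter (0.0557) and without Ctrl_Healthy libraries 3 and 4 (0.0671). Its change in Ctrl_EAE against Ctrl_Healthy was not called, but with library totals alone it was (-0.50, 0.000125).

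Among the eIF2 kinases, 2 of 3 fell in Ctrl_EAE against Ctrl_Healthy and the same 2 rose in Met_EAE against Ctrl_EAE. Eif2ak3 encodes PERK, which senses unfolded protein in the endoplasmic reticulum. It had 35.7, 39.0 and 48.2 CPM in Met_EAE, 20.9, 31.0 and 37.3 CPM in Ctrl_EAE and 44.4, 46.5 and 59.4 CPM in Ctrl_Healthy. Every Ctrl_EAE library was below every healthy library, at -0.67 ± 0.12 (adjusted p = 6.79e-05), and Met_EAE was higher than Ctrl_EAE by 0.40 ± 0.12 with overlap (0.019). Without Ctrl_EAE library 10 and Met_EAE library 22 that difference was no longer called. Eif2ak4 encodes GCN2, which senses uncharged tRNA. Its levels were 6.26, 6.46 and 7.10 CPM in Met_EAE, 3.72, 4.33 and 5.44 CPM in Ctrl_EAE and 5.32, 6.40 and 7.60 CPM in Ctrl_Healthy. Met_EAE and Ctrl_EAE did not overlap (0.57 ± 0.12, 0.0032), and Ctrl_EAE was lower than Ctrl_Healthy, at -0.55 ± 0.12 (0.000502), with 1 Ctrl_EAE library above the lowest healthy one. In Met_EAE against Ctrl_Healthy, 0 of the 3 kinases were called by edgeR over all libraries and 0 by DESeq2, and 1 had an unadjusted p under 0.05. That one, Eif2ak3, had -0.27 ± 0.12 (adjusted p = 0.0773, edgeR), and it was called lower with only those 2 groups in the fit (-0.28, 0.0221), without Ctrl_EAE library 10 and Met_EAE library 22 (-0.32, 0.00356) and with library totals alone (-0.45, 0.00935). Eif2ak1, which encodes the heme-regulated kinase HRI, was the most abundant per length (17.7 RPKM, the CPM per kilobase of exon, over all 18 libraries, beside 6.64 for Eif2ak3 and 0.780 for Eif2ak4). It had 95.4, 104 and 107 CPM in Met_EAE, 94.3, 96.3 and 97.8 CPM in Ctrl_EAE and 98.0, 98.9 and 111 CPM in Ctrl_Healthy. The Ctrl_EAE values lay just below the healthy ones without overlap, and the change of -0.09 ± 0.06 was not called (0.203).

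eIF3, the largest factor, holds the messenger and the other factors on the 40S subunit. All 14 eIF3 genes had a log2 change above 0 in Ctrl_EAE against Ctrl_Healthy and 8 rose, but with library totals alone 5 of the 14 were above 0, with 1 rise and 5 falls, and Eif3e, Eif3g and Eif3m turned sign. Of the 8 subunits with PCI or MPN domains that build the core in mammals, 5 rose (Eif3a, Eif3e, Eif3h, Eif3k and Eif3m). Of Eif3b, Eif3g and Eif3i, which form a second module, Eif3g and Eif3i rose, and of Eif3d, Eif3j1 and Eif3j2, Eif3j2 rose. In Met_EAE against Ctrl_EAE 2 fell, Eif3h and Eif3k, and 12 of the 14 changes were below 0. With library totals alone 8 of the 14 were above 0 in that comparison, with 1 rise (Eif3c, 0.22) and 1 fall (Eif3k, -0.37). Eif3h was then not called (-0.069). Eif3k had 16.7, 22.3 and 24.5 CPM in Met_EAE, 24.5, 32.9 and 37.7 CPM in Ctrl_EAE and 16.3, 17.98 and 21.3 CPM in Ctrl_Healthy. Ctrl_EAE did not overlap with either other group, though its lowest library, at 24.52 CPM, was next to the highest of Met_EAE, at 24.48 CPM. The rise was 0.79 ± 0.12 against Ctrl_Healthy (adjusted p = 1.76e-05), and Met_EAE against Ctrl_EAE gave -0.59 ± 0.12 (0.00314). Eif3h had 47.3, 55.5 and 61.5 CPM in Met_EAE, 58.3, 61.6 and 83.1 CPM in Ctrl_EAE and 45.1, 49.9 and 50.5 CPM in Ctrl_Healthy. It rose by 0.46 ± 0.10 in Ctrl_EAE (0.000349) without overlap. Its fall of -0.30 ± 0.10 with metformin (0.0297) was lost without Ctrl_EAE library 1 or 9 or without Met_EAE library 14 or 22 (adjusted p up to 0.0804).

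Eif3a, the largest eIF3 subunit, had 46.1, 52.2 and 70.0 CPM in Met_EAE, 40.7, 59.2 and 141 CPM in Ctrl_EAE and 26.3, 37.5 and 45.6 CPM in Ctrl_Healthy. Library 10 alone held the Ctrl_EAE value above 62.0 CPM. The rise of 0.93 ± 0.23 in Ctrl_EAE (adjusted p = 0.0015) was 0.60, and still called, without Ctrl_EAE library 10 and Met_EAE library 22. The rises of Eif3e, Eif3j2 and Eif3m (0.28, 0.55 and 0.36) were each lost on leaving out any of 10 or 11 libraries, and those genes share sequence with copies. Eif3h, Eif4a1 and Eif4a3 have near-identical copies too. Those of Eif4a1 and Eif4a3 held 31 and 1210 counts, beside 90398 and 33470 for the genes. The copy of Eif3h, AC122253.2, matches 81.5% of its longest transcript and is not among the genes counted. Eif3m had 3510 counts beside 70817 for its pseudogene Gm7658, and the sum rose by 0.31 ± 0.08 in Ctrl_EAE against Ctrl_Healthy (0.00154) and by 0.41 ± 0.08 in Met_EAE against Ctrl_Healthy (0.000349). Eif3e summed with Eif3s6-ps1 and Eif3s6-ps2 had a log2 change of 0.04 ± 0.09 in Ctrl_EAE, not called (0.704). Eif3j1 and Eif3j2 are copies of each other, and their summed counts gave 0.45 ± 0.22 in Ctrl_EAE, not called (0.0829). The other 6 subunits (Eif3b, Eif3c, Eif3d, Eif3f, Eif3j1 and Eif3l) were not called in the fit over all libraries on the TMM scale. With library totals alone, all of them but Eif3j1 fell in Ctrl_EAE against Ctrl_Healthy. Eif3d was called lower in Met_EAE against Ctrl_EAE by DESeq2 (-0.23, adjusted p = 0.0437) and with the number range as covariate (-0.23, 0.0324). The riser Eif3g was called lower there with that covariate (-0.20, 0.0337).

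**Figure D2:**
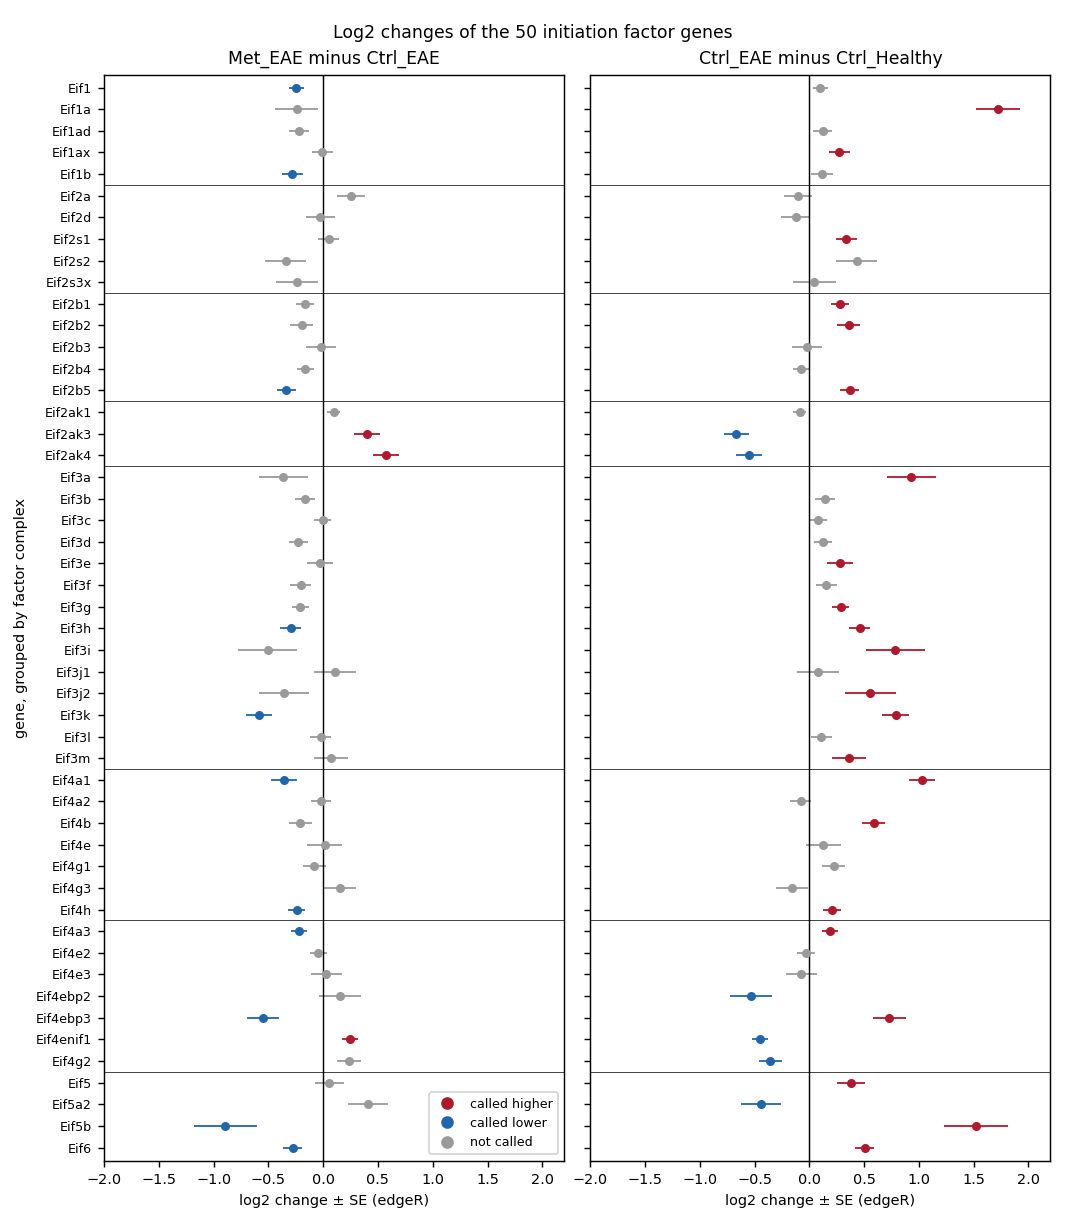
Points are log2 changes on the TMM scale with bars of 1 SE from edgeR (6 libraries a group) for the 50 genes, Met_EAE minus Ctrl_EAE at left and Ctrl_EAE minus Ctrl_Healthy at right, coloured by whether the adjusted p was under 0.05. All 14 eIF3 points lie right of 0 in the right panel (5 of 14 with library totals alone), the kinases Eif2ak3 and Eif2ak4 lie left of 0 there and right of 0 in the left panel, and the Eif5b bars are the widest.

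eIF4F reads the cap and unwinds the messenger, helped by eIF4B and eIF4H. Of these 7 genes, 3 rose in Ctrl_EAE against Ctrl_Healthy (Eif4a1, Eif4b and Eif4h, the last reversed with library totals alone) and 2 fell in Met_EAE against Ctrl_EAE (Eif4a1 and Eif4h). Eif4e, which binds the cap, the scaffolds Eif4g1 and Eif4g3, and the helicase paralogue Eif4a2 were not called in any comparison on the TMM scale. With library totals alone, Eif4g1, Eif4g3 and Eif4a2 fell in Ctrl_EAE against Ctrl_Healthy (-0.21, -0.58 and -0.51). Eif4a1, the main helicase gene, had 65.0, 103 and 139 CPM in Met_EAE, 127, 134 and 139 CPM in Ctrl_EAE and 57.5, 66.0 and 70.5 CPM in Ctrl_Healthy. Its Ctrl_EAE libraries were tightly grouped and all far above the healthy ones, and Met_EAE library 22 lay within the healthy range while library 21 reached the top of Ctrl_EAE. The rise was 1.03 ± 0.12 in Ctrl_EAE (adjusted p = 7.54e-07) and 0.67 ± 0.12 in Met_EAE (0.000242), each against Ctrl_Healthy. Met_EAE was lower than Ctrl_EAE, at -0.36 ± 0.12 (0.0323), a call lost without Ctrl_EAE library 1 or 18 or Met_EAE library 5 or 6 (adjusted p up to 0.0615). Per length, Eif4a1 made up a median of 61.9% of Eif4a1 plus Eif4a2 in Met_EAE (54.3 to 73.5%), 69.3% in Ctrl_EAE (66.6 to 70.7%) and 50.8% in Ctrl_Healthy (47.6 to 54.1%). No EAE library of either treatment had a share within the healthy range.

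Eif4b, the highest of all members per length at 135 RPKM over all libraries, had 489, 614 and 714 CPM in Met_EAE, 569, 717 and 806 CPM in Ctrl_EAE and 429, 458 and 561 CPM in Ctrl_Healthy. The rise was 0.59 ± 0.10 in Ctrl_EAE, without overlap (adjusted p = 7.58e-05), and 0.38 ± 0.10 in Met_EAE, with overlap (0.00785). Eif4h had 391, 434 and 454 CPM in Met_EAE, 447, 492 and 609 CPM in Ctrl_EAE and 422, 427 and 482 CPM in Ctrl_Healthy. Its rise in Ctrl_EAE (0.21 ± 0.08, 0.0296) and its fall with metformin (-0.24 ± 0.08, 0.033) were each lost without Ctrl_EAE library 1 or library 10, among others (adjusted p up to 0.0673 and 0.0711). For Eif4e the SE exceeded the change, 0.13 ± 0.16 in Ctrl_EAE against Ctrl_Healthy, with 24.1 CPM in Ctrl_EAE library 10 and at most 14.7 CPM in the others.

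**Figure D3:**
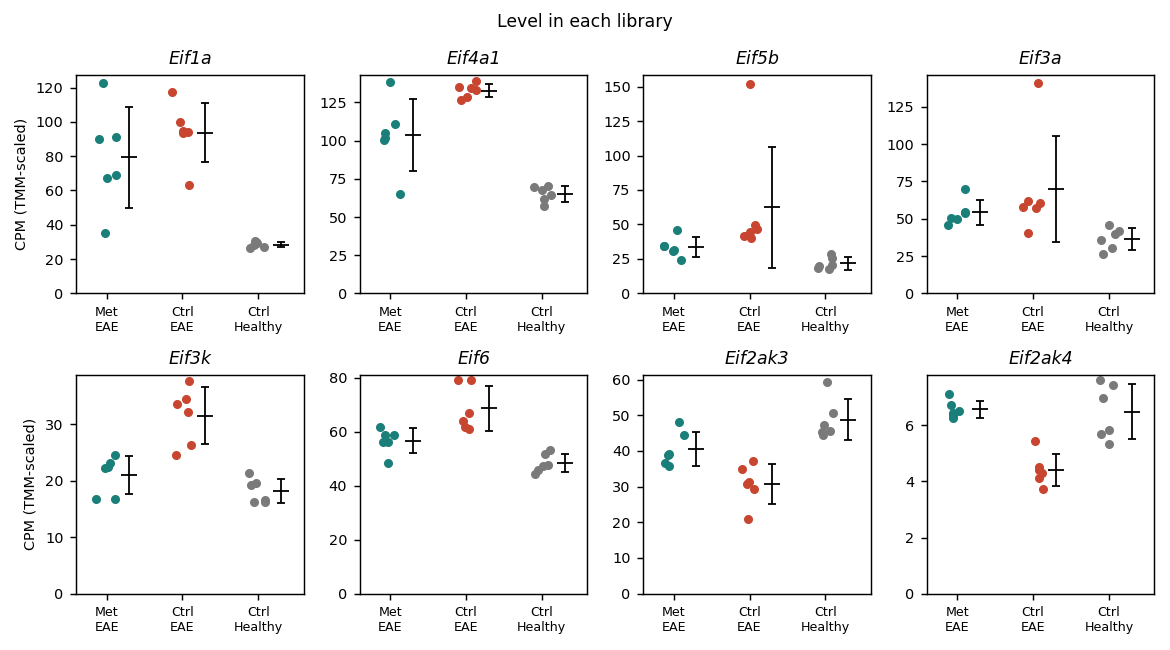
Dots are the TMM-scaled CPM of single libraries in Met_EAE, Ctrl_EAE and Ctrl_Healthy for 8 members (linear axes from 0), and the black mark beside each group is its mean ± SD (n = 6). Ctrl_EAE library 10 stands alone for Eif5b (152 CPM) and Eif3a (141 CPM), and 1 Met_EAE library, number 22, sits near the healthy dots for Eif1a (35.3 CPM) and Eif4a1 (65.0 CPM).

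The other eIF4 genes regulate cap-dependent initiation or act outside it, and they moved both ways. In Ctrl_EAE against Ctrl_Healthy 2 of 7 rose, Eif4ebp3 and Eif4a3 (Eif4a3 reversed with library totals alone), and 3 fell, Eif4enif1, Eif4ebp2 and Eif4g2. In Met_EAE against Ctrl_EAE the 2 risers fell and Eif4enif1 rose. Eif4enif1 encodes 4E-T, which carries eIF4E to the nucleus and to processing bodies. It had 36.5, 40.7 and 43.2 CPM in Met_EAE, 31.1, 33.6 and 37.0 CPM in Ctrl_EAE and 42.6, 45.0 and 50.7 CPM in Ctrl_Healthy. Every Ctrl_EAE library was below every healthy one (-0.45 ± 0.07, adjusted p = 2.92e-05), and the Met_EAE median was between, higher than Ctrl_EAE by 0.25 ± 0.07 (0.0197; 0.0509 without Met_EAE library 6) and lower than Ctrl_Healthy, at -0.20 ± 0.07 (0.035). The row overlaps Drg1 on the opposite strand over its whole length, and whether the counting used strand is not given in the sources used here. Other members overlap counted genes as well. Among them, Eif4e3 (47699 counts) overlaps Gm20696 (1575 counts) on the same strand over 41637 bases. Eif2d (14972 counts) overlaps Rassf5 (184146 counts) on the opposite strand over 11249 bases.

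Eif4ebp3, a 4E-binding protein gene, had 5.03, 6.10 and 6.66 CPM in Met_EAE, 7.10, 7.59 and 13.9 CPM in Ctrl_EAE and 4.79, 5.29 and 5.62 CPM in Ctrl_Healthy. Ctrl_EAE did not overlap with either other group, at 0.73 ± 0.15 against Ctrl_Healthy (adjusted p = 0.000266) and with Met_EAE lower, at -0.55 ± 0.15 (0.0118). Without Ctrl_EAE library 10 and Met_EAE library 22 these changes were 0.55 and -0.33, both called. The related Eif4ebp2 went the other way, at -0.53 ± 0.20 in Ctrl_EAE (0.0231, and 0.0662 without Ctrl_Healthy library 3). Per length, Eif4ebp3 made up a median of 57.9% of both in Met_EAE (49.2 to 58.5%), 64.9% in Ctrl_EAE (58.2 to 88.7%) and 47.4% in Ctrl_Healthy (39.8 to 52.3%). The Met_EAE range overlapped those of both other groups, and Eif4ebp1, set aside by name, is not part of this share. Eif4g2 encodes DAP5, an eIF4G relative that does not bind eIF4E. It had 472, 489 and 577 CPM in Met_EAE, 293, 422 and 549 CPM in Ctrl_EAE and 525, 545 and 597 CPM in Ctrl_Healthy, with overlap and a fall of -0.36 ± 0.11 in Ctrl_EAE (0.0075). Eif4a3, the helicase of the exon junction complex, had 32.3, 33.6 and 36.6 CPM in Met_EAE, 34.8, 39.4 and 44.4 CPM in Ctrl_EAE and 32.9, 34.4 and 36.7 CPM in Ctrl_Healthy. Its changes were small, 0.19 ± 0.07 in Ctrl_EAE (0.0266) and -0.22 ± 0.07 in Met_EAE against Ctrl_EAE (0.0271), both were lost without Ctrl_EAE library 1 (adjusted p up to 0.059 and 0.0584), and both turned sign with library totals alone (-0.23 and 0.0026). The cap-binding relatives Eif4e2 and Eif4e3 were not called in any comparison on the TMM scale. Both fell in Ctrl_EAE against Ctrl_Healthy with library totals alone (-0.46 and -0.47).

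At subunit joining and in the eIF5A and eIF6 genes, 3 of 4 rose in Ctrl_EAE against Ctrl_Healthy (Eif5, Eif5b and Eif6, with Eif5 at -0.022 under library totals alone) and Eif5a2 fell. In Met_EAE against Ctrl_EAE Eif5b and Eif6 fell. Eif5b encodes the GTPase that joins the 60S subunit. Its levels were 24.0, 32.8 and 46.2 CPM in Met_EAE, 40.5, 45.6 and 152 CPM in Ctrl_EAE and 17.7, 20.1 and 28.9 CPM in Ctrl_Healthy. All Ctrl_EAE libraries were above all healthy ones, and 5 of the 6 lay between 40.5 and 49.3 CPM, while library 10 held the other value. The rise of 1.52 ± 0.29 in Ctrl_EAE (adjusted p = 0.000218) was 1.03 without Ctrl_EAE library 10 and Met_EAE library 22, still called. The fall with metformin, -0.90 ± 0.29 (0.0309), was lost without Met_EAE library 5, 6, 13 or 22 (up to 0.0693). It was -0.41 without Ctrl_EAE library 10, still called, and -0.33, not called, without that library and Met_EAE library 22.

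Eif6, which keeps 60S subunits from joining early and serves in their assembly, had 48.2, 57.4 and 61.6 CPM in Met_EAE, 61.0, 65.3 and 79.2 CPM in Ctrl_EAE and 44.4, 47.5 and 53.3 CPM in Ctrl_Healthy. The rise of 0.50 ± 0.09 in Ctrl_EAE showed no overlap (adjusted p = 4.12e-05), and the Met_EAE median was between those of the other groups, lower than Ctrl_EAE, at -0.28 ± 0.08 (0.0225; up to 0.0548 without Ctrl_EAE library 1 or Met_EAE library 22) and higher than Ctrl_Healthy by 0.23 ± 0.08 (0.0419; lost without any of 9 libraries, up to 0.0969). Eif5, the GTPase activator of eIF2, had 96.2, 117 and 130 CPM in Met_EAE, 76.3, 103 and 165 CPM in Ctrl_EAE and 77.8, 83.9 and 91.4 CPM in Ctrl_Healthy. All Met_EAE libraries were above all healthy libraries (0.43 ± 0.13, 0.013), and Ctrl_EAE rose by 0.38 ± 0.13 with overlap (0.0158). Eif5a2, a second gene for eIF5A, which helps ribosomes past slow codons, had 10.6, 14.4 and 16.9 CPM in Met_EAE, 5.66, 12.1 and 13.7 CPM in Ctrl_EAE and 11.8, 14.2 and 19.4 CPM in Ctrl_Healthy. The fall of -0.44 ± 0.18 in Ctrl_EAE (0.038) was lost without Ctrl_EAE library 1 or 10 or Ctrl_Healthy library 11, 12 or 20 (up to 0.108). The main gene, Eif5a, was listed at 0, while its processed pseudogene Eif5al3-ps held 74908 counts, with 67.1, 81.4 and 99.7 CPM in Met_EAE, 85.8, 94.7 and 107 CPM in Ctrl_EAE and 61.4, 67.5 and 73.9 CPM in Ctrl_Healthy. That pseudogene row rose by 0.50 ± 0.09 in Ctrl_EAE (0.0001), a change of 0.076, not called, with library totals alone.

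Levels spanned a wide range between members. Per length of annotated exons, the median of the 50 was 10.9 RPKM over all libraries, between 135 RPKM for Eif4b and 0.197 RPKM for Eif3i, an eIF3 subunit with 661 counts in all and no near-identical copy at the threshold used. Within eIF3, the highest subunit, Eif3f at 42.2 RPKM, was 214 times Eif3i. Within eIF2, Eif2s1 stood at 5.49 RPKM and Eif2s3x, part of whose sequence is shared with Gm2223, at 0.364 RPKM. Eif3i rose by 0.78 ± 0.27 in Ctrl_EAE against Ctrl_Healthy (adjusted p = 0.0168) at levels of at most 1.22 CPM in any library.

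**Figure D4:**
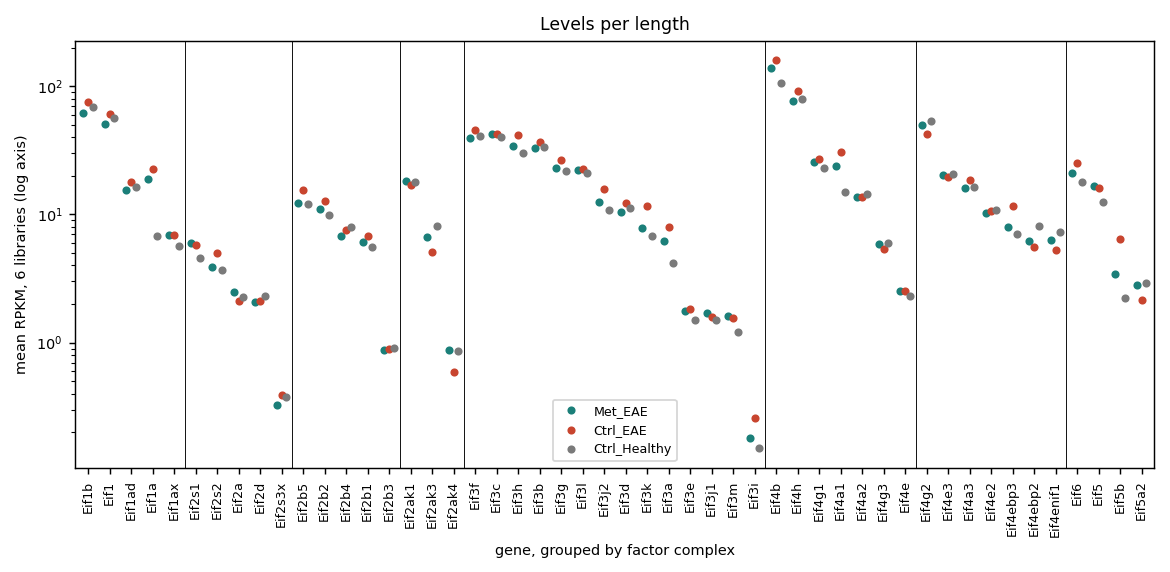
Dots are the mean RPKM (TMM-scaled CPM per kilobase of annotated exons, log axis) of 6 libraries in Met_EAE, Ctrl_EAE and Ctrl_Healthy for each of the 50 genes, grouped by complex. Subunits of 1 complex spread widely, eIF3 between Eif3f (42.2 RPKM over all libraries) and Eif3i (0.197 RPKM), and the 3 groups lie close together for most genes, with the widest gaps at Eif1a, Eif5b and Eif4a1.

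The comparisons of Ctrl_EAE with Ctrl_Healthy and of Met_EAE with Ctrl_EAE share the Ctrl_EAE libraries, so their calls are given side by side only. Risers in Ctrl_EAE that fell with metformin were Eif2b5, Eif3h, Eif3k, Eif4a1, Eif4a3, Eif4ebp3, Eif4h, Eif5b and Eif6. Of these, Eif4a1 and Eif6 were still higher in Met_EAE than in Ctrl_Healthy. With library totals alone, Eif3k (-0.37) was still called lower in Met_EAE than in Ctrl_EAE. The other falls were then not called (Eif2b5 -0.11, Eif4a1 -0.15 and Eif6 -0.062, among them). A further 6 risers, Eif1a, Eif1ax, Eif2s1, Eif3m, Eif4b and Eif5, were also higher in Met_EAE than in Ctrl_Healthy and not called between the EAE groups. Groups did not overlap for 10 members higher and 3 lower in Ctrl_EAE against Ctrl_Healthy (20.1% and 19.3% of all genes), 1 and 4 in Met_EAE against Ctrl_EAE (4.90% and 5.44%) and 4 and 1 in Met_EAE against Ctrl_Healthy (6.82% and 6.12%). In none of the 3 comparisons were the remaining 19 members called on the TMM scale. With library totals alone, all of them but Eif2s2, Eif2s3x, Eif3j1 and Eif4e fell in Ctrl_EAE against Ctrl_Healthy. The median of all genes was then -0.42.

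The wider translation machinery gives these values a setting. Of 35 related genes tested (elongation and release factors, poly(A)-binding proteins, eIF4E kinases and targets of the eIF2 stress pathway), 18 rose and 6 fell in Ctrl_EAE against Ctrl_Healthy, 3 rose and 5 fell in Met_EAE against Ctrl_EAE, and 8 rose and 3 fell in Met_EAE against Ctrl_Healthy, with medians of 0.35, -0.07 and 0.14. With library totals alone these counts were 4 and 13, 10 and 3, and 5 and 6, and without Ctrl_EAE library 10 and Met_EAE library 22 they were 19 and 8, 5 and 6, and 15 and 5. Of all 16740 genes the counts with library totals alone were 2604 and 8649, 4712 and 616, and 1927 and 4786. Without those 2 libraries they were 5393 and 5447, 1725 and 1811, and 4556 and 4361 of 16788 genes. Of all genes in the main fit, 31.7% rose and 30.7% fell in the first comparison. In the second these shares were 12.5% and 12.1%, and in the third 20.3% and 16.3%. Atf4, the transcription factor whose translation increases when eIF2 is phosphorylated, had 231, 286 and 303 CPM in Met_EAE, 338, 359 and 456 CPM in Ctrl_EAE and 254, 268 and 289 CPM in Ctrl_Healthy. Ctrl_EAE exceeded both other groups without overlap, with 0.49 ± 0.09 against Ctrl_Healthy (adjusted p = 0.000131) and -0.47 ± 0.09 in Met_EAE against Ctrl_EAE (0.00255). With library totals alone its rise was not called. Its targets Ddit3 and Trib3 rose by 0.85 ± 0.14 (4.13e-05) and 2.63 ± 0.35 (4.06e-06) in Ctrl_EAE against Ctrl_Healthy. Ddit3 fell in Met_EAE against Ctrl_EAE (-0.54 ± 0.14, 0.0108), and Trib3 stayed higher in Met_EAE than in Ctrl_Healthy (1.91 ± 0.34, 0.00033).

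Of the 6 listed genes with elongation factor symbols, 5 rose in Ctrl_EAE against Ctrl_Healthy (Eef1a1, Eef1b2, Eef1d, Eef1e1 and Eef1g) and Eef2 was not called (0.26, adjusted p = 0.108, edgeR). Eef1e1 is an elongation factor by symbol only, and its product is part of the complex of aminoacyl-tRNA synthetases. Of the 5, Eef1a1 and Eef1e1 were still called higher with library totals alone. Eef1a1, which brings tRNA to the elongating ribosome, rose by 0.77 ± 0.12 in Ctrl_EAE (adjusted p = 1.15e-05), and Eef1e1 by 0.86 ± 0.13 in Ctrl_EAE and 0.71 ± 0.13 in Met_EAE, each against Ctrl_Healthy. The exchange factor genes Eef1g and Eef1d had -0.53 ± 0.11 (0.00312) and -0.37 ± 0.08 (0.00353) in Met_EAE against Ctrl_EAE, with no overlap for either, and with library totals alone the fall of Eef1d was not called. Eef2k, the kinase that slows elongation, fell in both EAE groups against Ctrl_Healthy, by 0.75 in Met_EAE and by 0.96 in Ctrl_EAE on the log2 scale. Dhx29, a helicase that helps the 40S subunit through structured leaders, fell to a median of 11.1 CPM in Ctrl_EAE, against 16.97 CPM in Ctrl_Healthy (-0.64 ± 0.11, 3.42e-05). Of the release factor genes, Etf1 rose in Met_EAE (0.57 ± 0.11) and in Ctrl_EAE (0.64 ± 0.11), each against Ctrl_Healthy. Gspt1 was higher in Met_EAE than in Ctrl_EAE without overlap (0.37 ± 0.09, 0.00645) and lower in Ctrl_EAE than in Ctrl_Healthy (-0.46 ± 0.09). Ddx3x, an X-linked helicase that assists scanning, had 149, 203 and 210 CPM in Met_EAE, 106, 169 and 182 CPM in Ctrl_EAE and 91.4, 111 and 123 CPM in Ctrl_Healthy, and rose by 0.86 ± 0.12 in Met_EAE against Ctrl_Healthy (3.31e-05) without overlap.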

How the data were processed

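RNA of 18 libraries (6 each of Met_EAE, Ctrl_EAE and Ctrl_Healthy, grouped by their titles) was analysed from a table of counts per gene that the authors deposited as whole numbers for 39017 Ensembl genes. Per the labels' protocols, RNA was isolated with a Direct-zol kit and the KAPA Stranded RNA-Seq kit was used on mRNA-enriched material. The submitters' processing notes name bcl2fastq 2.17, FastQC, Trimmomatic and mm10. For the aligner, the counter, the strand setting and the annotation, each is not given in the sources used here. Symbols, positions and exon lengths came from GENCODE M21 (GRCm38), which placed 37693 genes.

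Genes passed filterByExpr (minimum count 10, minimum total 15). All libraries entered 1 edgeR 4.0.16 fit (R 4.3.3, TMM, robust quasi-likelihood F test, group means, no covariate), and p-values were adjusted over 16740 genes. An SE is the log2 change divided by the square root of F. RPKM is TMM-scaled CPM per kilobase of exon union. Near-identical copies were found with blastn 2.17.0 (at least 95% identity over at least 30% of the longest coding transcript). The script was tested on simulated data. Replicates were checked for duplicates, and within groups the smallest chi-square divided by its degrees of freedom was 14.8. Alternatives were DESeq2 1.42.0, its size factors, library totals alone, no filter, 2 groups per fit, the range of library numbers as covariate, each library left out, and 3 chosen after seeing the data: without Ctrl_EAE library 10 and Met_EAE library 22, without Ctrl_Healthy libraries 3 and 4, and counts summed with near-identical copies.

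Members and lists were chosen with earlier results of these data known. Values were given for up to 3 genes per complex with the smallest p in any comparison, for members that moved against most of their complex, and for 5 related genes per comparison with the smallest p. Other genes given with values (among them Eif1ax, Eif2b4, Eif3e, Eif3i, Eif3j2, Eif3m, Eif4e, Eif4ebp2 and the pseudogenes) were chosen after their values were seen.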

Additional observations from a re-analysis of the deposited data

Results flagged for a closer look

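In 13 of 150 sets of 6 libraries (50 members in 3 groups), 1 library stood apart from the other 5 by a gap, relative to the range, above Dixon's 95% critical value. Chance flags about 1 in 20 such sets on average, but the 50 genes share the same 18 libraries, so the sets are not independent. The rate over all genes is not given here. Of the 13, 7 were in Ctrl_EAE library 10, which held the highest or lowest value of its group for 65.1% of all genes. It was the highest of its group for Eif5b at 152 CPM (others 40.5 to 49.3), Eif3a at 141 CPM (40.7 to 62.0), Eif3j2 at 81.7 CPM (24.8 to 33.7), Eif2s2 at 63.2 CPM (22.1 to 30.4), Eif4e at 24.1 CPM (9.49 to 14.7), Eif3j1 at 15.7 CPM (5.77 to 9.29) and Eif4ebp3 at 13.9 CPM (7.10 to 8.70).

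Ctrl_EAE library 1 was the lowest for Eif1ax at 27.2 CPM (others 36.3 to 40.3) and the highest for Eif2b5 at 49.7 CPM (36.4 to 40.2). Met_EAE library 21 was the highest for Eif3a at 70.0 CPM (46.1 to 54.6) and Eif3j2 at 41.2 CPM (26.3 to 29.8). Met_EAE library 22 was the lowest for Eif3b at 94.1 CPM (109 to 117), and Ctrl_Healthy library 3 was the lowest for Eif1b at 64.7 CPM (77.6 to 85.4).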

How the results depend on the processing

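No paired analysis was possible because the groups share no library numbers in the labels. The library numbers fall into separate ranges, each with libraries of every group, and the range was the covariate named above. What a range stands for is not given. Scaling mattered most. With library totals alone, the medians of all genes moved by -0.42, 0.22 and -0.20 in Ctrl_EAE against Ctrl_Healthy, Met_EAE against Ctrl_EAE and Met_EAE against Ctrl_Healthy, and the members called higher and lower were 4 and 25, 8 and 1, and 2 and 14. Of all 16740 genes, those called higher and lower were then 2604 and 8649, 4712 and 616, and 1927 and 4786. Signs then turned in Ctrl_EAE against Ctrl_Healthy for Eif1ax (-0.14), Eif2b1 (-0.15), Eif2b2 (-0.074), Eif2b5 (-0.057), Eif2s1 (-0.082), Eif3e (-0.14), Eif3g (-0.14), Eif3m (-0.058), Eif4a3 (-0.23), Eif4h (-0.21) and Eif5 (-0.022), and in Met_EAE against Ctrl_EAE for Eif4a3 (0.0026). DESeq2, its size factors and the number range as covariate left each of the 6 counts within 1.5 times.

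Falls in Met_EAE against Ctrl_EAE numbered 11, and 4 with only the 2 groups in the fit, 7 with no filter, and 7 without Ctrl_EAE library 10 and Met_EAE library 22 (6 of the 7 shared with the 11). Over all genes these falls were 2024 of 16740, 1411 of 16084, 1679 of 24826 and 1811 of 16788. Falls in Met_EAE against Ctrl_Healthy numbered 2, and 5 with only the 2 groups, 0 with no filter, 4 without those 2 libraries and 0 without Ctrl_Healthy libraries 3 and 4. Over all genes they were 2730 of 16740, 3420 of 16340, 2401 of 24826, 4361 of 16788 and 2263 of 17088. Leaving out 1 library gave 17 to 23 rises and 5 to 6 falls in Ctrl_EAE against Ctrl_Healthy, 2 to 4 and 5 to 13 in Met_EAE against Ctrl_EAE, and 5 to 10 and 1 to 4 in Met_EAE against Ctrl_Healthy. Over all genes these ranges were 5106 to 5443 and 4908 to 5288, 1435 to 2196 and 1596 to 2109, and 2884 to 4031 and 2092 to 3790. The cause of these shifts was not tested. Eif3i and Eif2s3x, with 661 and 1297 counts over 18 libraries, are the members whose depth is lowest.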
